A study of Mus musculus with 6 samples.

Results

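The genes that encode the proteins of the cytosolic ribosome were compared between mouse breast tumors whose neural activity was recorded, some collected before its first peak and others on the peak day. A ribosome is built from a large and a small subunit, each a scaffold of ribosomal RNA (rRNA) coated with proteins. Most of these proteins are needed in nearly equal numbers. Their genes are among the most strongly transcribed in any growing cell, and most of their mRNAs begin with a C followed by a run of pyrimidines, the 5′ terminal oligopyrimidine (TOP) tract, through which mTOR signalling sets their translation. In mammalian genomes each such gene has also left many processed pseudogenes, which are near-copies of its mRNA.

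Members were chosen by gene symbol: protein-coding genes named Rpsa, Rplp0, Rplp1 or Rplp2, or Rpl or Rps followed by a digit, with the S6 kinases and pseudogenes left out. They were 85 of the 23508 genes counted, 51 of the large subunit, 33 of the small subunit, and Rps19bp1, which by its name encodes a protein that binds Rps19 and is not a subunit of the ribosome. Of the 85, 7 are copies of another member (Rpl3l, Rpl7l1, Rpl22l1, Rpl36al, Rpl39l, Rps27l and Rps27rt), and the other 77 ribosomal protein genes are called core members below, 46 large and 31 small. A filter on low counts was passed by 83 members and 76 core members. The 2 that did not pass were Rpl24 and Rpl3l.

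The samples were 6 tumors of 4T1, a mouse mammary carcinoma line that serves as a triple-negative breast cancer model, 3 taken before the peak and 3 taken with it. The labels name no other treatment, genotype, strain or age, do not say whether each tumor came from its own animal, and state no tumor age, so collection day and peak cannot be told apart. Total counts ran from 10591067 to 14549357 per library. RNA was counted per gene in whole tumors, so fewer cells of a type and less RNA per cell cannot be told apart in any value below. The 13 carcinoma epithelial markers summed to 3829 to 5005 CPM (library-size-scaled counts, with TMM factors) before the peak and 3183 to 4651 CPM with it, and none was at 0 in any library.

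Several members show the TOP tract at their RefSeq start. As examples from both subunits, with fold changes from near 0 to among the highest of the members, the first 25 bases of 6 transcripts are printed with the 5 bases before them (GRCm38.p6, strand of the gene, tract in capitals), together with the muscle copy Rpl3l, in which no tract begins at the annotated start.
Rpl35 (chr2:39005107-39005136, minus strand): ctttcCTCTTTCTCTCgaaccaggctgctt
Rps6 (chr4:86857343-86857372, minus strand): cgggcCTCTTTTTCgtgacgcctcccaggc
Rps15a (chr7:118116123-118116152, minus strand): gccatCTTCCCTCgccggtgagtgagtgtt
Rpl15 (chr14:18270962-18270991, minus strand): gccttCTTCCTTTCCTCTggcggcagccat
Rplp2 (chr7:141447646-141447675, plus strand): tcttcCTTTCgccgccggacgccgccgagg
Rpl38 (chr11:114668575-114668604, plus strand): tcgttCTTTCCCCgttctcttcggttctca
Rpl3l (chr17:24727821-24727850, plus strand): gctctgtcatttgacctctggtgcctggtg
Of the 57 core members with a RefSeq promoter sequence, 13 (22.8%) had a C followed by at least 4 bases that are C or T exactly at the annotated start, against 3.01% of 27025 symbols with a promoter. A looser search, for a run of at least 6 C or T that starts with C anywhere from 20 bases before to 30 bases after the start, matched 43 of the 57 (75.4%) and 37.8% of all symbols. Only the strand of the gene was searched, and annotated starts can lie some bases from the real one. The motifs CCGGAAG and AAGATGG were searched on both strands from 250 bases before to 50 bases after the start: CCGGAAG was present in 24 of the 57 promoters (42.1%, against 9.93% of all symbols) and AAGATGG in 9 (15.8%, against 7.28%), with both in 2 of them. These searches overlap where the motifs share bases, and a match is only a match of letters. The 13 tested members with a tract exactly at the start had a median log2 fold change of 0.17 and the 43 without one a median of 0.19.

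As a family, ribosomal protein mRNAs were slightly more abundant in the with-peak tumors. Members took 7.86%, 7.06% and 7.33% of all counts before the peak and 7.78%, 7.91% and 8.45% with it, in the order of the replicate numbers, which is kept for all values per tumor below. With-peak replicate 1 lay below before-peak replicate 1, so the groups overlapped, and the means differed by 0.63 percentage points against a pooled within-group SD of 0.38. The median log2 CPM of the 76 tested core members was 9.96, 9.83 and 9.86 before the peak and 10.05, 10.03 and 10.19 with it. On that scale every with-peak tumor was above every before-peak tumor, with a gap of 0.07 between the closest pair of tumors, beside a pooled within-group SD of 0.08.

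Across the 83 tested members the median log2 fold change of with-peak over before-peak tumors was 0.19, beside -0.02 over all 16755 genes tested, and the quartiles of the members were 0.05 and 0.27. Of the 83, 71 had a value above 0 (85.5%), as had 47.7% of all genes tested; with scaling by library size alone, which moved the median of all genes to -0.07, 61 of 83 were above 0 and the members' median was 0.13. No member passed the edgeR quasi-likelihood test after Benjamini-Hochberg adjustment over all genes at 0.05, and no gene of the whole table did (0%). At an unadjusted p under 0.05, 22 members were higher with the peak (26.5%), beside 6.12% of all genes, and 0 were lower, beside 3.38% of all genes. DESeq2 passed 2 members, Rpl35 and Rpl32, and 1.59% of all genes. In 30 of the 83 (36.1%) the lowest with-peak tumor exceeded the highest before-peak tumor, beside 8.13% of all genes, and the reverse held in none of them, beside 7.38% of all genes.

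The count of 22 depended on single libraries. In the main fit it stood beside 1592 of all genes, counted in either direction. It was 12 of 84 tested members when before-peak replicate 2 was left out, beside 1266 of all genes. When with-peak replicate 3 was left out it was 13 of 84, beside 1592 of all genes. With-peak replicates 2 and 3 were highest in skeletal muscle markers (1719 and 1768 CPM summed, against 71.4 to 339 in the other 4). They were also highest in the erythroid gene Hbb-bt (131 and 219 CPM, against 9.55 to 20.6 in the other 4). Without those 2 libraries the members' median was 0.11, with the lone with-peak tumor assumed to vary like the other group.

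**Figure D1:**
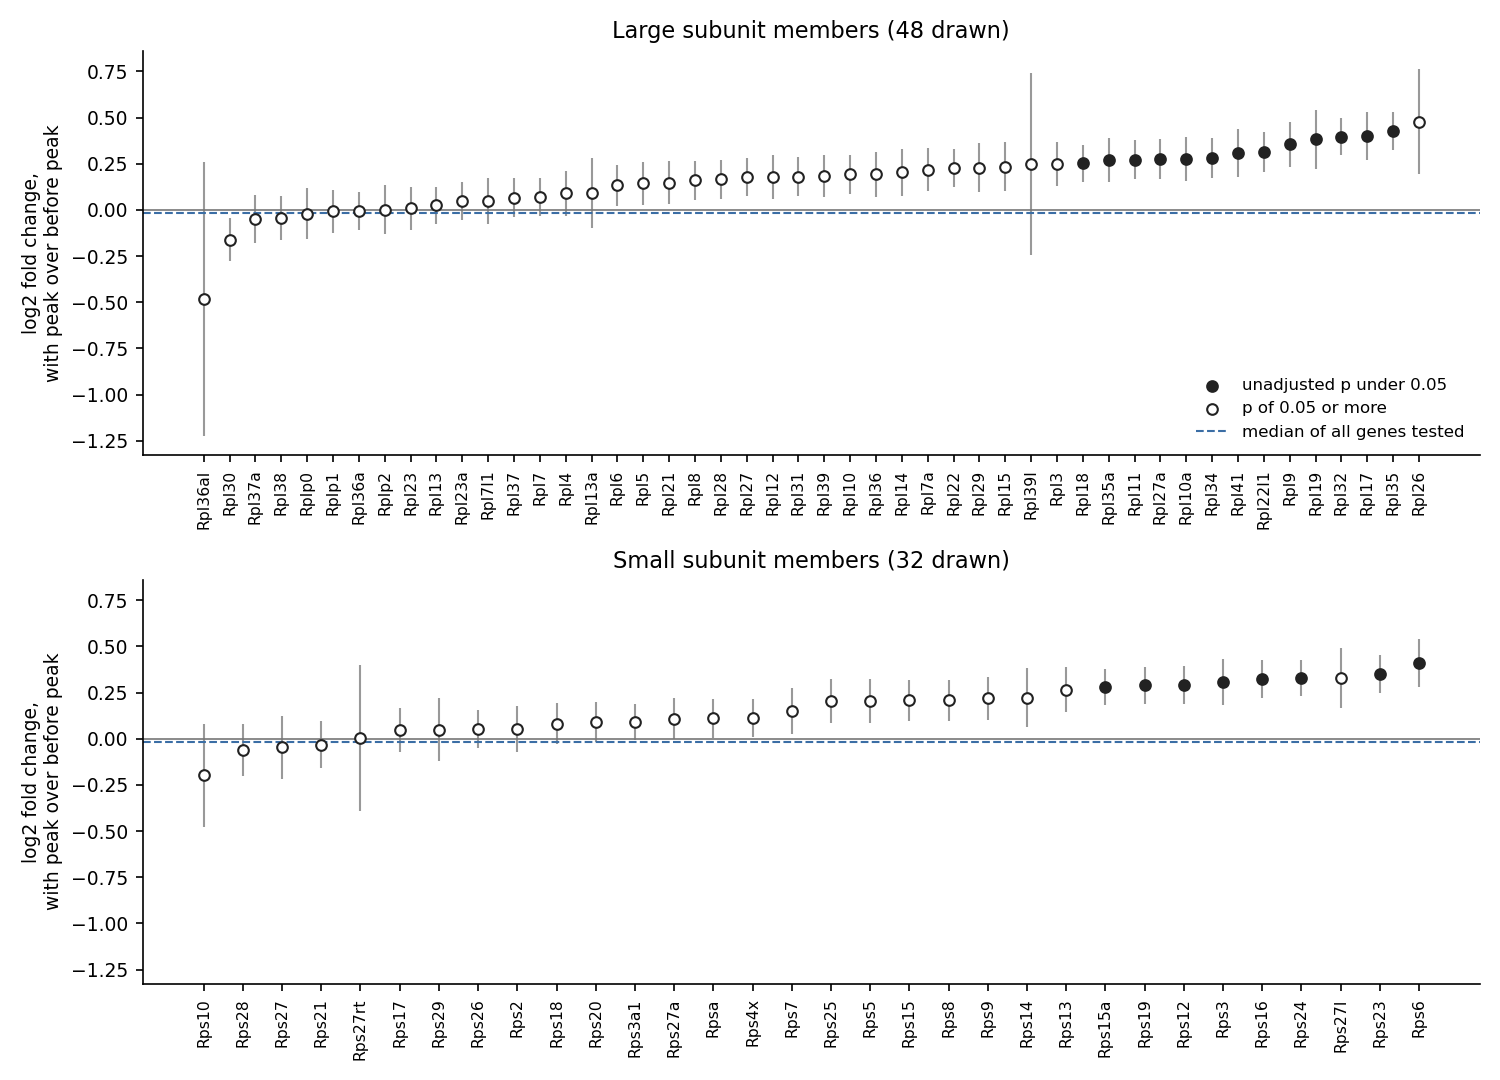
Log2 fold change of with-peak over before-peak tumors (vertical axis, bars are ± 1 SE of the edgeR fit, 3 tumors a group) for tested large-subunit (top, 48) and small-subunit (bottom, 32) genes, ordered by value; 1 gene of each subunit is not drawn. Filled points have an unadjusted p under 0.05 and the dashed line is the median of all genes tested, -0.02; in both panels most points lie above it and the filled ones are all on the high side.

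**Figure D2:**
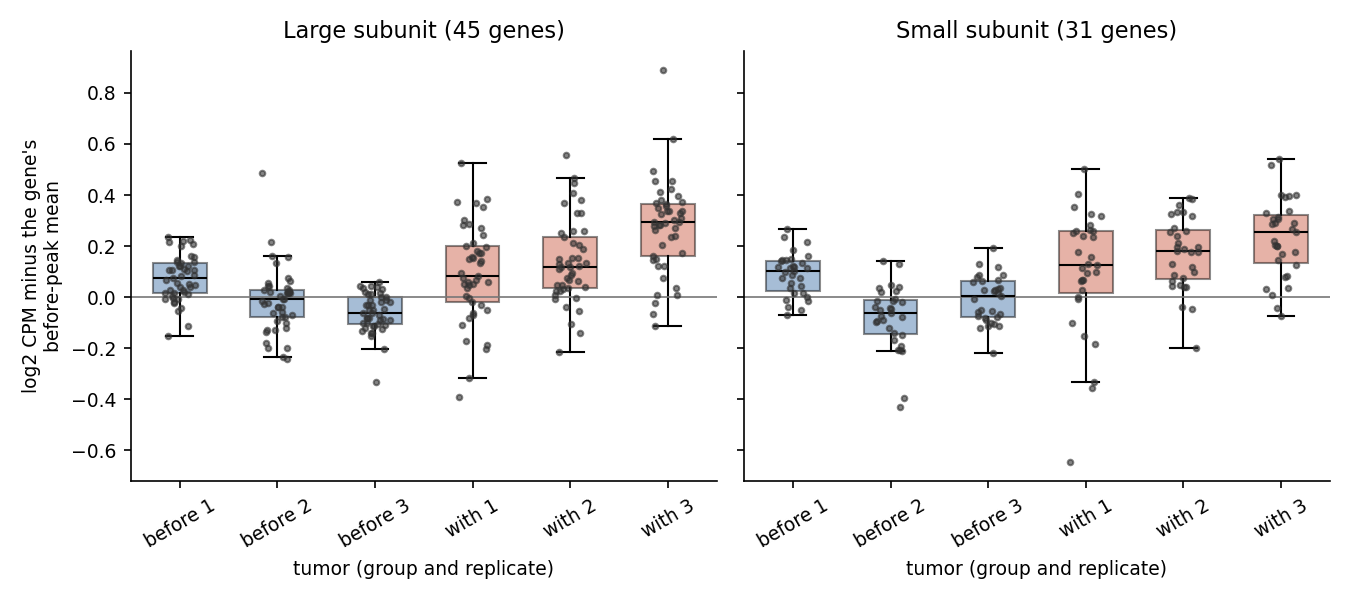
Log2 CPM of each tested core member minus its own before-peak mean (vertical axis, each point 1 gene) in each of the 6 tumors, large subunit (45 genes) left and small subunit (31 genes) right; boxes span the quartiles with the median as a line, and whiskers reach the last gene within 1.5 box lengths. The with-peak boxes are higher, highest in replicate 3, and the box of before-peak replicate 1 overlaps those of the with-peak tumors.

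The length of the mRNA moved with this result. Ribosomal protein mRNAs are short, with a median of 776 bases over the 76 tested core members against 2695 over the 13571 other protein-coding genes with a length. Among those other genes, the 577 with mRNAs under 800 bases had a median log2 fold change of 0.16 and 74.2% of them were above 0, the 1990 of 800 to 1500 bases had 0.08, the 5223 of 1500 to 3000 had -0.01 and the 5781 of 3000 or more had -0.07. An unadjusted p under 0.05 in the with-peak direction was found for 14.6% of the genes under 800 bases and 4.12% of those of 3000 or more. In single tumors the median log2 CPM of the 577 short mRNAs was 4.47, 4.34 and 4.30 before the peak and 4.45, 4.67 and 4.56 with it, so with-peak replicate 1 lay within the before-peak range.

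That slope was not seen among the core members: the 40 under 800 bases had a median of 0.18, against 0.16 for other genes of that length, and the 36 of 800 bases or more had 0.20. Over all other genes Spearman's rho of fold change with length was -0.21, and over the core members it was 0.21, both as descriptions across genes that share libraries. Length here is a median over annotated transcripts, which can be long for a member with a short coding sequence. Rps15a, the longest core member on this scale, was taken at 5130 bases with a coding sequence of 393. How far such lengths shaped the split of the members was not tested. When the length trend of the other genes was subtracted from each fold change, the members' median was 0.07 in place of 0.19. The part that mRNA length had in the members' difference was not tested further.

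**Figure D3:**
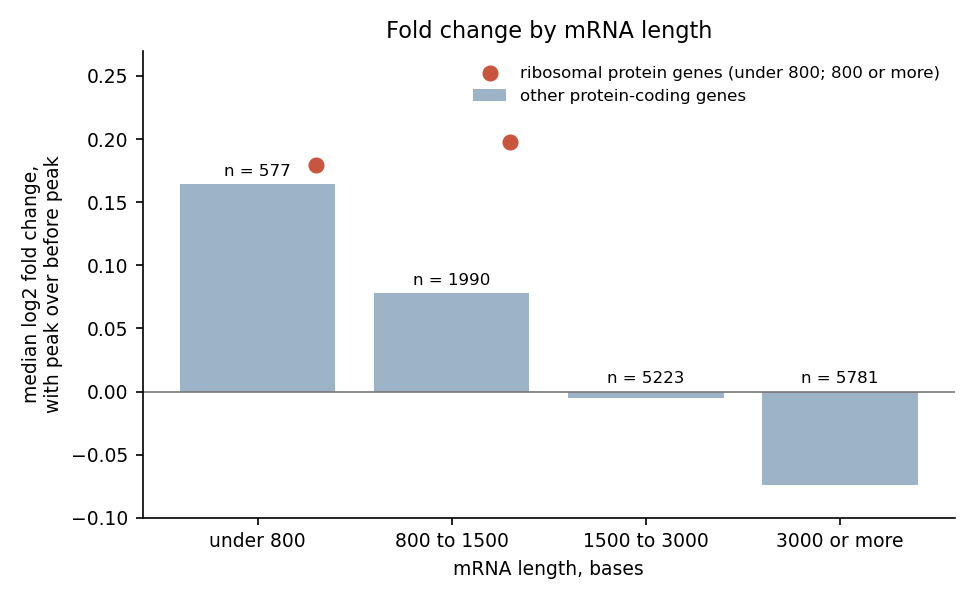
Median log2 fold change of with-peak over before-peak tumors (vertical axis) for other protein-coding genes in 4 bins of mRNA length in bases (bars, with the number of genes), and for core ribosomal protein genes under 800 bases (0.18) and of 800 bases or more (0.20, points). The bars step down from 0.16 in the shortest bin to -0.07 in the longest, and the point of the shorter members is close to the bar of its bin.

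Markers of some cell types differed in level between the groups as well. All 13 macrophage and monocyte markers had a fold change above 0 (median 0.73), with a summed level of 3842 to 5989 CPM before the peak and 6817 to 10340 CPM with it. The 20 skeletal muscle markers were all above 0 (median 2.50) and the 14 proliferation markers all below (median -0.22; 1633 to 1828 CPM before, 1356 to 1677 CPM with). Medians were -0.26 for the carcinoma, 0.59 for the neutrophil, 0.51 for the fibroblast, 0.31 for the endothelial and 2.71 for the erythroid markers. The groups overlapped in summed CPM for neutrophil (416 to 931 before, 551 to 775 with) and fibroblast markers (7334 to 12330 before, 9339 to 18060 with). They also overlapped for endothelial (443 to 536 before, 406 to 827 with), muscle (71.4 to 339 before, 308 to 1768 with) and carcinoma markers. Erythroid sums were 149 to 268 CPM before and 290 to 2182 CPM with the peak. The T and NK cell markers (median -0.52; 30.4 to 240.5 CPM summed before the peak, 65.6 to 88.7 CPM with it) and the B and plasma cell markers (median -1.90; 21.3 to 799.5 CPM before, 167 to 264 CPM with) had with-peak sums inside the before-peak range. Of the B cell genes, Pax5 measured 1.44, 0.94 and 60.2 CPM before and 3.02, 1.88 and 5.53 CPM with the peak, so that before-peak replicate 3 was high and both other before-peak tumors were below every with-peak tumor. The 2 mitochondrial rRNAs, which are not markers of a cell type, had a median of 0.81. They took 0.033%, 0.031% and 0.046% of all counts before the peak and 0.061%, 0.065% and 0.059% with it. The groups did not overlap, with-peak replicate 1 included, and whether RNA selection or quality differed between them was not tested. The part that cell content had in the members' difference was not tested.

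The large and small subunits had similar medians. The 49 large-subunit members had a median of 0.18 (41 above 0) and the 33 small-subunit members a median of 0.20 (29 above 0), a difference of -0.02. In single tumors the median log2 CPM of large minus small core members was -0.08, 0.01 and -0.14 before the peak and -0.07, -0.04 and -0.06 with it, so the with-peak tumors lay inside the before-peak range. At an unadjusted p under 0.05, 13 large-subunit members (26.5%) and 9 small-subunit members (27.3%) were higher with the peak, beside 6.12% of all genes.

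In the large subunit the smallest p-values belonged to Rpl35, Rpl32, Rpl17 and the copy Rpl22l1. Rpl35 (chromosome 2, 39001580 to 39005624, minus strand), a protein at the exit of the tunnel through which the nascent chain leaves the ribosome, measured 818, 725 and 780 CPM before the peak and 1011, 1026 and 1089 CPM with it. All with-peak tumors exceeded all before-peak tumors. The fold change was 0.43 ± 0.10 on the log2 scale (SE; adjusted p = 0.24, edgeR), and the tract at its start is the first printed above.
Rpl32, a large-subunit protein on chromosome 6 (115805505 to 115808747, minus strand), measured 1212, 1087 and 1125 CPM before and 1458, 1483 and 1565 CPM with the peak. Its groups did not overlap either, and the fold change was 0.40 ± 0.10 on the log2 scale (SE; adjusted p = 0.27, edgeR). Rpl17, which also lines the exit tunnel, had a fold change of 0.40 ± 0.13 on the log2 scale (SE; adjusted p = 0.40, edgeR), from 1166 ± 177 to 1538 ± 111 CPM (SD, n = 3). Of these, Rpl35 shares 28.5% of its coding bases with Wdr38 on the opposite strand, and the libraries do not mark strand.

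In the small subunit Rps23, Rps24 and Rps6 were among those with the smallest p-values. Rps24 (chromosome 14, 24487125 to 24496959, plus strand), mutated in some Diamond-Blackfan anaemias, measured 1076, 993 and 1040 CPM before and 1290, 1306 and 1310 CPM with the peak. The with-peak tumors lay close together and above every before-peak tumor, with a fold change of 0.33 ± 0.10 on the log2 scale (SE; adjusted p = 0.36, edgeR).
Rps6 (chromosome 4, 86854660 to 86857412, minus strand), the substrate of the S6 kinases downstream of mTOR, measured 992, 824 and 931 CPM before and 1293, 1032 and 1329 CPM with the peak. With-peak replicate 2 was only slightly above before-peak replicate 1, and the fold change was 0.41 ± 0.13 on the log2 scale (SE; adjusted p = 0.39, edgeR). Rps23, at the decoding centre, went from 887 ± 38.5 to 1130 ± 60.2 CPM (SD, n = 3), which is 0.35 ± 0.10 in log2 (SE; adjusted p = 0.35, edgeR).

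The stalk of the large subunit, which recruits the elongation factors, had values near 0. Its base, Rplp0, measured 2040, 1602 and 1647 CPM before and 1730, 1511 and 1978 CPM with the peak. The highest value was a before-peak tumor and the lowest a with-peak tumor. Its fold change was -0.02 ± 0.14 on the log2 scale (SE; adjusted p = 0.98, edgeR), and it turned to 0.03 when the counts of its pseudogene Gm8730 were added.
Rplp1 measured 1962, 1750 and 1769 CPM before and 1601, 1983 and 1870 CPM with the peak, with a log2 fold change of -0.01 ± 0.12 (SE). Rplp2 measured 1008, 1097 and 852 CPM before and 871, 1059 and 1032 CPM with it, with a log2 fold change of 0.00 ± 0.13 (SE). The groups overlapped fully for both genes, and the sign of each depended on which tumor was left out. The other 42 tested core members of the large subunit had a median of 0.19. Rpsa, a small-subunit protein also known as the laminin receptor, measured 2762, 2470 and 2403 CPM before and 2662, 2657 and 2927 CPM with the peak, a fold change of 0.11 ± 0.11 on the log2 scale (SE; adjusted p = 0.78, edgeR).

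**Figure D4:**
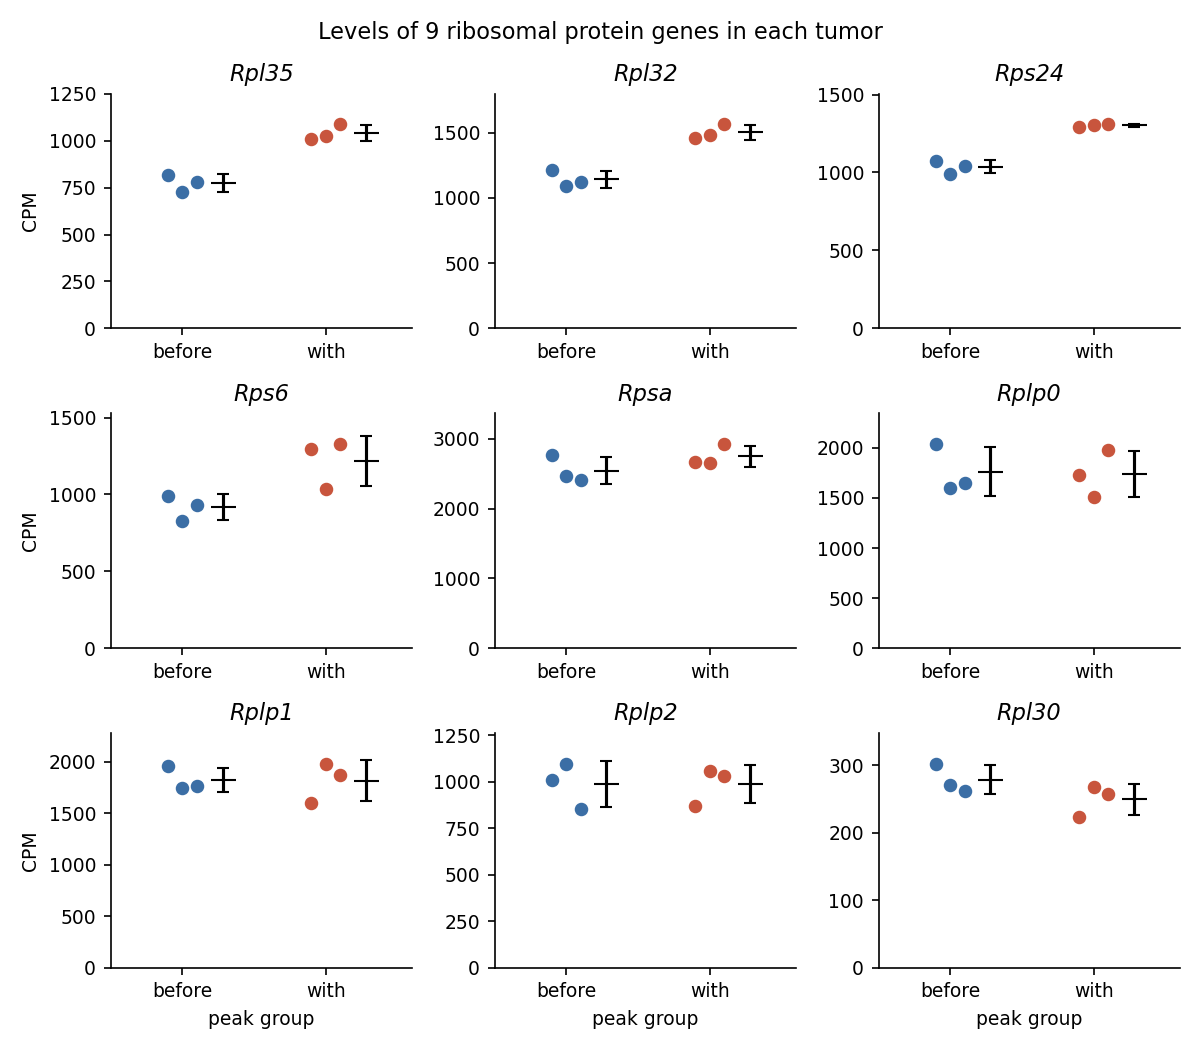
CPM (vertical axes, starting at 0) of 9 ribosomal protein genes in the 3 before-peak tumors (blue points, replicates 1 to 3 from left) and the 3 with-peak tumors (red points), with the mean and SD in black. The groups are apart for Rpl35, Rpl32, Rps24 and Rps6 and overlap for Rpsa, Rplp0, Rplp1, Rplp2 and Rpl30.

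Lowest among the well-counted members was Rpl30, which in yeast represses its own splicing. It measured 302, 271 and 262 CPM before and 223, 268 and 257 CPM with the peak. With-peak replicate 2 lay inside the before-peak range, and the fold change was -0.16 ± 0.12 on the log2 scale (SE; adjusted p = 0.71, edgeR). The gene held 19621 counts and its pseudogene Gm12191 held 15223. With its pseudogenes added, the mean level of Rpl30 went from 264 to 485 CPM and its fold change was -0.12 ± 0.11 (SE; edgeR adjusted p = 0.77). Rps28, a small-subunit protein near the mRNA exit, had -0.06 ± 0.14 (SE), from 804 ± 64.0 to 771 ± 139 CPM (SD, n = 3). Rpl38, which in mouse is needed for normal patterning of the axial skeleton and whose tract is printed above, had -0.04 ± 0.12 (SE).

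Members were also set against the family itself, as log2 CPM minus the median of the core members in the same tumor. On this scale 12 of the 76 (15.8%) were lower in every with-peak tumor than in any before-peak tumor, beside 24.6% of all genes tested on the same scale, and 5 (6.58%) were higher, beside 2.61%. Among the 12 were Rpl30, Rplp0, Rplp1 and Rpsa, and among the 5 were Rpl32 and Rpl35, named because they are described above. Rplp0 stood 1.03, 0.81 and 0.83 above the family median before the peak and 0.71, 0.53 and 0.76 above it with the peak. Relative to that median Rpl35 was at -0.28, -0.33 and -0.25 before and at -0.06, -0.03 and -0.10 with the peak. These members help to set the median they are compared with. That median was itself higher in every with-peak tumor, so subtracting it lowers all other genes there. In CPM alone, 7.38% of all genes were lower and 8.13% higher without overlap. The shares of members and of all genes on this scale therefore cannot be compared directly.

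Levels varied widely among members although most of the proteins are needed in near-equal numbers. Per kilobase of mRNA the median over the 77 core members was 1269 CPM per kb, with quartiles of 896 and 1781. Rpl41, which encodes the smallest ribosomal protein, was highest at 4343 CPM per kb, followed by Rplp1 at 3652 and Rps12 at 3598. In CPM, Rpl41 measured 2348, 1954 and 1832 before and 2243, 2773 and 2571 with the peak (0.31 ± 0.13 SE in log2; adjusted p = 0.52, edgeR), and its groups overlapped. Rps12 measured 1675, 1632 and 1467 CPM before and 1876, 1994 and 1977 CPM with the peak (0.29 ± 0.10 SE; edgeR adjusted p = 0.42), without overlap.

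The lowest core members per kilobase were Rpl24 at 0.80, Rps10 at 11.1, Rpl13a at 70.1 and Rpl26 at 97.6 CPM per kb. Of the coding bases of Rpl24, 83.4% lie in another annotated gene on the same strand, as do 80.1% of Rps10, 90.3% of Rpl13a and 95.3% of the copy Rpl36al, which stood at 1.20 CPM per kb. In the other members that share coding bases with any gene, 7 in all, the share was at most 55.3%. How reads in shared bases were assigned is not given in the sources used here.

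Reads of a member can also be counted in near-identical copies elsewhere in the genome, most of which are annotated as processed pseudogenes. Of the 77 core members, 65 had at least 1 pseudogene that matched their coding sequence over at least 100 bases at 98% identity or more, and the 227 such pseudogenes held counts equal to 4.62% of the members' own. Copies annotated as other gene types were not added to any member: Rps18 has the protein-coding Gm10260 (99.13% identity over 459 bases, 13566 counts) and Gm11361 (1120 counts), Rpl41 the lincRNA Gm10076 (98.85% over 87 bases, 26320 counts), Rpl35 Gm2000 (1434 counts) and Rplp1 Gm10073 (1171 counts). Rpl26, an rRNA-binding protein that also binds the p53 mRNA, is the clearest case: the gene itself held 4340 counts over the 6 libraries and its pseudogene Gm15772 on chromosome 5 (3236431 to 3236868) held 39018. Their coding sequences differ at 2 of 438 bases, and coding bases 147 to 206 show 1 of these positions, in capitals.
Rpl26: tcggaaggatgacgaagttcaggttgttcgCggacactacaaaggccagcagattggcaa
Gm15772: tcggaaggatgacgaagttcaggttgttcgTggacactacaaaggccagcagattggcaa
Rpl26 alone measured 43.0, 67.0 and 38.0 CPM before and 47.7, 70.4 and 88.6 CPM with the peak, a fold change of 0.48 ± 0.28 on the log2 scale (SE; adjusted p = 0.65, edgeR). With its pseudogenes added, its mean level went from 59.1 to 594 CPM, 10.1 times as high, and the fold change was 0.23 ± 0.12 (SE; edgeR adjusted p = 0.60). Rps2 went from 723 to 1551 CPM and from 0.05 to 0.13 in log2 fold change.

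Rpl24, which in mouse carries the Belly spot and tail mutation, had 11, 16 and 6 counts before and 4, 3 and 1 with the peak. These counts are too few to have passed the filter, and no fold change is given. With pseudogenes added it stood at 15.2 CPM with a fold change of 0.26 ± 0.27 on the log2 scale (SE; adjusted p = 0.80, edgeR). Rps10, a small-subunit protein mutated in some Diamond-Blackfan anaemias, measured 8.59, 7.75 and 6.5 CPM before and 4.84, 7.36 and 7.76 CPM with the peak. Its log2 fold change was -0.20 ± 0.28 (SE) alone and 0.30 ± 0.16 (SE; edgeR adjusted p = 0.60) with its pseudogenes. Over all members, adding pseudogenes gave a median of 0.20. At an unadjusted p under 0.05 there were then 23 of 84 tested members, beside 1578 of all genes in either direction.

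**Figure D5:**
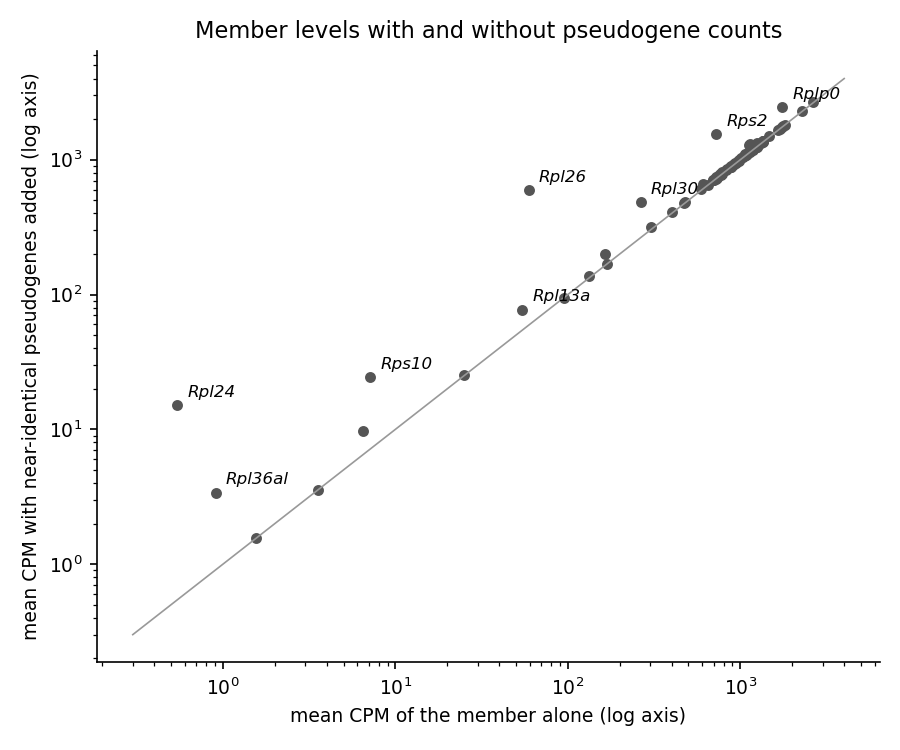
Mean CPM over the 6 tumors of each member alone (horizontal, log axis) and with its near-identical pseudogenes added (vertical, log axis); the line marks equal values and 8 members are named. Most members lie on the line, and Rpl24, Rpl26, Rps10 and Rpl36al lie furthest above it.

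Of the copies of members, Rpl22l1 was the one among the smallest p-values. It can stand in for Rpl22 in the ribosome, and measured 120, 118 and 118 CPM before and 134, 160 and 149 CPM with the peak. The groups did not overlap, and the fold change was 0.31 ± 0.11 on the log2 scale (SE; adjusted p = 0.40, edgeR); 28.6% of its coding bases lie opposite another gene. Its parent Rpl22 went from 595 ± 26.2 to 695 ± 38.2 CPM (SD, n = 3), a fold change of 0.23 ± 0.10 on the log2 scale (SE; adjusted p = 0.53, edgeR).

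Rpl3l, which replaces Rpl3 in skeletal and heart muscle, had 7, 2 and 3 counts before the peak and 10, 46 and 42 with it, and did not pass the filter. The high values were with-peak replicates 2 and 3, the same 2 libraries that were highest in the 20 skeletal muscle markers. Its parent Rpl3 measured 1093, 1079 and 946 CPM before and 1262, 1092 and 1349 CPM with the peak (0.25 ± 0.12 SE in log2; adjusted p = 0.56, edgeR).

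The Rps27 genes show what counting can and cannot separate. Rps27 and its retrocopy Rps27rt have the same 255 coding bases, whereas Rps27l, a p53 target, differs from both. The first 60 coding bases are printed with the 18 positions at which Rps27l differs in capitals.
Rps27: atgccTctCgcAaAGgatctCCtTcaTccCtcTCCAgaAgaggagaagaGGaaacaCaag
Rps27l: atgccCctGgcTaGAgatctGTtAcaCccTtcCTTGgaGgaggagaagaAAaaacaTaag
Rps27 measured 1039, 655 and 1007 CPM before and 822, 936 and 856 CPM with the peak, a log2 fold change of -0.05 ± 0.17 (SE). Rps27rt was counted at 6.49 ± 2.78 CPM before and 6.52 ± 1.99 CPM with it (SD, n = 3), and its reads cannot be told apart from those of Rps27 over the coding bases. Rps27l measured 183, 129 and 139 CPM before and 173, 223 and 170 CPM with the peak, with a fold change of 0.33 ± 0.16 on the log2 scale (SE; adjusted p = 0.57, edgeR) and overlapping groups.

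The remaining copies stayed near their parents or were scarcely counted. Rpl7l1, a protein of ribosome assembly, had a value of 0.05 ± 0.12 (SE) in log2 fold change and Rpl7 0.07 ± 0.10 (SE). Rpl39l, best known from the testis, was counted at 3.27 ± 1.41 CPM before and 3.86 ± 2.02 CPM with the peak (SD, n = 3), and Rpl39 had 0.19 ± 0.11 (SE). Rpl36al had 66 counts over the 6 libraries and -0.48 ± 0.74 (SE) against -0.01 ± 0.11 (SE) for Rpl36a; with its pseudogene added Rpl36al was at 0.27 ± 0.41 (SE). Rps19bp1 had 0.21 ± 0.17 (SE).

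Genes that make, regulate and use ribosomes were examined as lists chosen by function. For comparison, 47.7% of all genes tested had a fold change above 0. At an unadjusted p under 0.05, 6.12% of all genes were higher with the peak and 3.38% lower. Of the 5 other ribosome and ubiquitin genes, 4 had a fold change above 0 (median 0.24) and 2 had an unadjusted p under 0.05 in that direction. Fau, which encodes a small-subunit protein fused to a ubiquitin-like one, measured 1088, 1097 and 981 CPM before and 1305, 1281 and 1406 CPM with the peak, without overlap (0.33 ± 0.10 SE; edgeR adjusted p = 0.39). Ubb, a polyubiquitin gene, had 0.34 ± 0.11 (SE; edgeR adjusted p = 0.40). The 21 elongation factors and other genes with TOP mRNAs had a median of 0.12, with 14 above 0 (66.7%). At an unadjusted p under 0.05, 4 of them were higher (19.0%) and 0 lower. Eif3h and Eif3k, subunits of the initiation factor that holds the small subunit, had 0.36 ± 0.14 and 0.30 ± 0.12 (SE; edgeR adjusted p = 0.47 for both).

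The 29 other initiation factors had a median of 0.01, with 1 higher (3.45%) and 1 lower at an unadjusted p under 0.05. Eif4g1, the scaffold of the cap-binding complex, measured 603, 610 and 572 CPM before and 449, 487 and 512 CPM with the peak, without overlap (-0.30 ± 0.10 SE; edgeR adjusted p = 0.40). Eif4ebp1, which blocks that complex when mTOR is inactive, had 0.27 ± 0.11 (SE; edgeR adjusted p = 0.50).

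Most genes for rRNA synthesis and ribosome assembly had values below 0. Of the 52 tested, 47 had a fold change below 0 (median -0.15), with 4 lower and 0 higher at an unadjusted p under 0.05. Polr1a, the largest subunit of RNA polymerase I, measured 55.6, 50.7 and 48.7 CPM before and 37.9, 39.2 and 40.4 CPM with the peak, without overlap (-0.40 ± 0.12 SE; edgeR adjusted p = 0.36). Nop58, a core protein of the particles that guide rRNA methylation, measured 165, 168 and 154 CPM before and 97.3, 123 and 151 CPM with the peak, also without overlap (-0.39 ± 0.15 SE; edgeR adjusted p = 0.48). The median mRNA length of this list was 2720 bases, near that of all genes tested (2683), and the 5223 other genes of 1500 to 3000 bases had a median of -0.01.

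The 10 genes of ribosomal stress and dedicated chaperones had a median of -0.11, with 3 lower and 0 higher at an unadjusted p under 0.05, among them Heatr3 (-0.37 ± 0.12 SE; edgeR adjusted p = 0.40), whose yeast counterpart carries a large-subunit protein into the nucleus, and Efl1 (-0.53 ± 0.19 SE; edgeR adjusted p = 0.42), the GTPase that completes large-subunit maturation. Of the 22 tested Myc and mTOR regulators, 16 had a fold change below 0 (median -0.10) and none had an unadjusted p under 0.05; the smallest p-values were those of Larp4, an mRNA-binding protein (-0.22 ± 0.11 SE; edgeR adjusted p = 0.56), and the S6 kinase gene Rps6kb2 (-0.66 ± 0.32 SE; edgeR adjusted p = 0.58). No gene of these lists passed the edgeR test after adjustment over all genes.
The 77 tested genes of the mitochondrial ribosome, a list added after the results were seen, had a median of 0.10. Their median mRNA length was 1226 bases, and 57 were above 0 (74.0%). At an unadjusted p under 0.05, 6 were higher (7.79%, near the 6.12% of all genes) and 0 lower.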

How the data were processed

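Per the labels' protocols, tumors were snap-frozen, RNA was isolated by Trizol, selected with oligo(dT) and sequenced paired-end without strand marking. FastQC, STAR and mm10 were used, per the submitters' processing notes. The authors deposited raw counts per gene. The sources used here do not give the counter or its annotation. Of 23508 identifiers, 23479 matched GENCODE M21 on GRCm38, the assembly that mm10 names, which gave symbols and coordinates.

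Counts were scaled by TMM and filtered by filterByExpr (minimum count 10, minimum total 15), leaving 16755 genes. The edgeR 4.0.16 quasi-likelihood test (robust, two-sided, R 4.3.3) compared 3 with-peak with 3 before-peak tumors, without covariate, with Benjamini-Hochberg adjustment over all genes. SE is the log2 fold change divided by the square root of F. Nothing says that the tumors are separate animals, so p-values reflect only the spread among the 6 tumors. Alternatives included DESeq2 1.42.0 and limma-voom (limma 3.58.1). The code was tested on simulated counts. Between libraries of a group, chi-square per degree of freedom was 17.4 to 29.3, far above sampling noise, so none was treated as a duplicate.

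mRNA length is the median over basic protein-coding transcripts. Pseudogenes were matched with blastn 2.17.0. Promoters are from RefSeq (GRCm38.p6), which held 65 of the 85 members.

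The members, gene lists and tests were chosen with earlier results of these data known. Named genes were Rplp0, Rplp1, Rplp2 and Rpsa, the 4 members of each subunit with the smallest p, the 2 of each with the lowest fold change, paralog copies with their parents, the 3 highest per CPM and per kilobase, members not tested, and 2 genes of each pathway list. Other members were named after their values were seen, and cell type lists are given as lists except for Pax5 and Hbb-bt. A few members are not reported here by name but enter every count and median.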

Additional observations from a re-analysis of the deposited data

How the results depend on the processing

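The members' median log2 fold change stayed above 0 under every alternative run. It ranged from 0.13 to 0.22 when single tumors were left out, and was 0.092 with both replicates 3 left out (2 against 2) and 0.073 with the length trend of the other genes subtracted, an alternative added after seeing the data, as were the addition of pseudogene counts and the removal of both muscle-rich libraries. The members at an unadjusted p under 0.05, 22 in all, were 12 to 26 with single tumors left out, beside 1133 to 1888 of all genes. With library size alone they were 13 of 83, beside 1788 of all genes. In the 2 against 2 comparison they were 8 of 83, beside 1705 of all genes. The counts over all genes take either direction. Fits with tumors left out were filtered anew, so their totals of genes tested can differ from 16755. Genes of the whole table past the adjusted threshold, 0 with edgeR (1592 at an unadjusted p under 0.05) and 0 with limma-voom, were 266 with DESeq2, 29 with no filter on low counts, 4 in the 2 against 2 comparison and 0 to 17 with single tumors left out. The cause of these changes was not tested. The large minus small difference ran from -0.039 to 0.050 with single tumors left out, at its highest without before-peak replicate 2.

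The replicate number as a block gave 1 gene past the threshold and 11 members at an unadjusted p under 0.05, beside 1154 of all genes. Same-numbered tumors correlated at -0.06, -0.10 and 0.03 in their deviations from the group means. The labels state no pairing, and correlations over so few tumors cannot show whether same-numbered tumors shared a batch or day.

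Of 719 fold changes of named genes under an alternative, 687 had the sign of the main result. With pseudogene counts added, the sign turned for Rpl36a (0.0032), Rpl36al (0.27), Rplp0 (0.034) and Rps10 (0.30). With library size alone it turned for Rpl7l1 (-0.0073), Rplp2 (-0.054) and Rps27rt (-0.058), and with upper quartile scaling for Rplp2 (-0.0039) and Rps27rt (-0.0053). With no filter Rps27rt was at -0.0025. In the 2 against 2 comparison Rplp2 was at -0.12, Rps27 at 0.054 and Rps27rt at -0.021, and without both muscle-rich libraries Rplp2 was at -0.18. With single tumors left out, values ran from -0.061 to 0.048 for Rpl36a, -1.15 to 0.0027 for Rpl36al, -0.12 to 0.64 for Rpl39l, -0.12 to 0.098 for Rplp0, -0.076 to 0.081 for Rplp1, -0.094 to 0.090 for Rplp2, -0.23 to 0.068 for Rps27, -0.32 to 0.21 for Rps27rt and -0.20 to 0.066 for Rps28. Depth limits Rpl24, Rpl3l, Rpl36al, Rpl39l and Rps27rt, which hold few counts.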
